A study of Mus musculus with 4 samples.

Results

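The 10 genes described here are Slc1a2, Slc1a3, Aqp4, Gja1, Gjb6, Kcnj10, Glul, Aldh1l1, Sox9 and S100b, which mature astrocytes use for transport, coupling and identity. They were chosen by gene name, and all 10 were found among the 33981 genes measured. RNA was sequenced from coronal brain sections through the prefrontal cortex, in 24 libraries, 6 in each of 4 groups of male C57BL/6J mice aged 3 to 5 months. NT + Sham mice were given vehicle and sham surgery, and NT + Stroke mice were given vehicle and photothrombosis, in which light clots the vessels of the prefrontal cortex. HT + Sham and HT + Stroke mice had the same surgeries but received angiotensin II, 0.28 mg/kg each day over 28 days, so hypertension here is the kind produced by that peptide. Surgery was on day 7 of the infusion and tissue was taken on day 28. Each library was treated as 1 mouse, and a P-value then measures the spread between libraries.

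Astrocytes take up the glutamate and potassium that neurons release. SLC1A2 (GLT-1) and SLC1A3 (GLAST) are their glutamate transporters, and the enzyme encoded by Glul, glutamine synthetase, turns that glutamate into glutamine. AQP4 is the water channel of the endfeet that wrap brain vessels, and KCNJ10 (Kir4.1) is the potassium channel that lies beside it. The connexins CX43 and CX30, encoded by Gja1 and Gjb6, join astrocytes to each other by gap junctions. ALDH1L1 is an enzyme of folate metabolism, SOX9 a transcription factor and S100B a calcium-binding protein, and all 3 are used as markers of astrocytes. After injury, astrocytes near the lesion raise the filament genes Gfap and Vim, which serve here as the reference.

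The regions just before the start of 3 members are shown because these genes rose after stroke and because SOX9 is itself a member. RefSeq promoters of GRCm38.p6 were found for 8 of the 10 members, and each sequence is the 250 bases before the start, 5′ to 3′ on the strand of the gene. S100b lies on chromosome 10, with this region at chr10:76253586-76253835 on the plus strand. Gja1 is also on chromosome 10, at chr10:56377050-56377299 on the plus strand, and Kcnj10 is on chromosome 1, at chr1:172340960-172341209 on the plus strand. Capitals mark TTGGC, the half-site of nuclear factor I (NFI) proteins, on either strand.
S100b: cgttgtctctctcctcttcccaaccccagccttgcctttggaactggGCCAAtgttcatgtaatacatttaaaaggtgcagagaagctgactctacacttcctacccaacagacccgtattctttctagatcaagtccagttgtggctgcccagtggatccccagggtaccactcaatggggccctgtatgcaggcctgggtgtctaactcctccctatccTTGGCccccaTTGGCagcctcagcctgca
Gja1: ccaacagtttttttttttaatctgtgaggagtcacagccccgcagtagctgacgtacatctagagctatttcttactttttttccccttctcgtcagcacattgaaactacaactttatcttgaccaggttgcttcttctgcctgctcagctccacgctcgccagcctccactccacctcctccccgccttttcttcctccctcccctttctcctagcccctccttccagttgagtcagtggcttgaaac
Kcnj10: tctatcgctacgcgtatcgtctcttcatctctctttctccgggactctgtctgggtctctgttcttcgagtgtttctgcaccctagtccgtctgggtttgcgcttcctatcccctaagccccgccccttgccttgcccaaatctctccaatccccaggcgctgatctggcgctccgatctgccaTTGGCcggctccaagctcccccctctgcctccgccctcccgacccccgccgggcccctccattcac
The letters TTGGC were found in 3 places before S100b, in 1 place before Kcnj10 and in none before Gja1. Of the 8 members, 4 held TTGGC, against 41.5% of all 32851 promoters in the table. The SOX letters ACAAAG and ACAATG, searched on both strands, were in 0 of the 8 members, against 16.5% and 10.7% of all promoters. The STAT letters TTCNNNGAA were in 1 of the 8, Slc1a3, against 7.02% of all promoters.

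All 10 genes were well measured, from 215 counts for Sox9 in the lowest library to 37008 counts for Glul in the highest. Total counts per library were 15922919 to 24865998 (median 18497215). Levels of different genes can be compared only per length, as FPKM, which divides counts by gene length and library size. On that scale the order was Glul (median over 24 libraries 382 FPKM), Slc1a2 (102 FPKM), S100b (73.3 FPKM), Slc1a3 (36.7 FPKM), Kcnj10 (21.4 FPKM), Gjb6 (17.4 FPKM), Aqp4 (12.9 FPKM), Aldh1l1 (12.3 FPKM), Gja1 (12.2 FPKM) and Sox9 (4.21 FPKM). Glul was first and Sox9 last in all 24 libraries. Aqp4, Aldh1l1 and Gja1 were not separated, since Aqp4 was above Aldh1l1 in 13 libraries and Aldh1l1 above Gja1 in 15. Within NT + Sham, Gja1 and Glul varied least between libraries, with coefficients of variation of 2.46% and 2.58% on the CPM scale (counts divided by library size), and Kcnj10 varied most, at 14.9%.

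Genes that overlap a member could share its reads, and whether counting used the strand is not given in the sources used here. Of 6 overlapping genes, 5 had under 0.3% of the counts of their member. The exception was Dip2a, on the opposite strand to S100b, with 37.8% as many counts. Dip2a was at 37.4 to 56.2 CPM of the total count in NT + Sham (median 44.5) and 41.3 to 49.7 CPM in NT + Stroke (median 43.4), so the groups overlapped.

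Of the 24 libraries, 3 went against their labels in the injury genes. Gfap was at 592 to 1053 CPM in the 6 NT + Stroke libraries and 904 to 1360 CPM in 4 libraries labelled HT + Stroke, but at 255 and 230 CPM in HT + Stroke libraries 1 and 6. In the library labelled HT + Sham 6 Gfap was at 542 CPM, against 163 to 241 CPM in the other 5 of its group. Lgals3, a marker of lesion macrophages, was at 2.85 and 3.11 CPM in HT + Stroke libraries 1 and 6, against at least 8.34 CPM in the other stroke libraries, and at 15.9 CPM in HT + Sham library 6, against at most 1.17 CPM in the other sham libraries. Results that use HT groups are given with and without these 3 libraries. They were picked on genes of the same injury, so values without them are a description and no independent test.

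**Figure D1:**
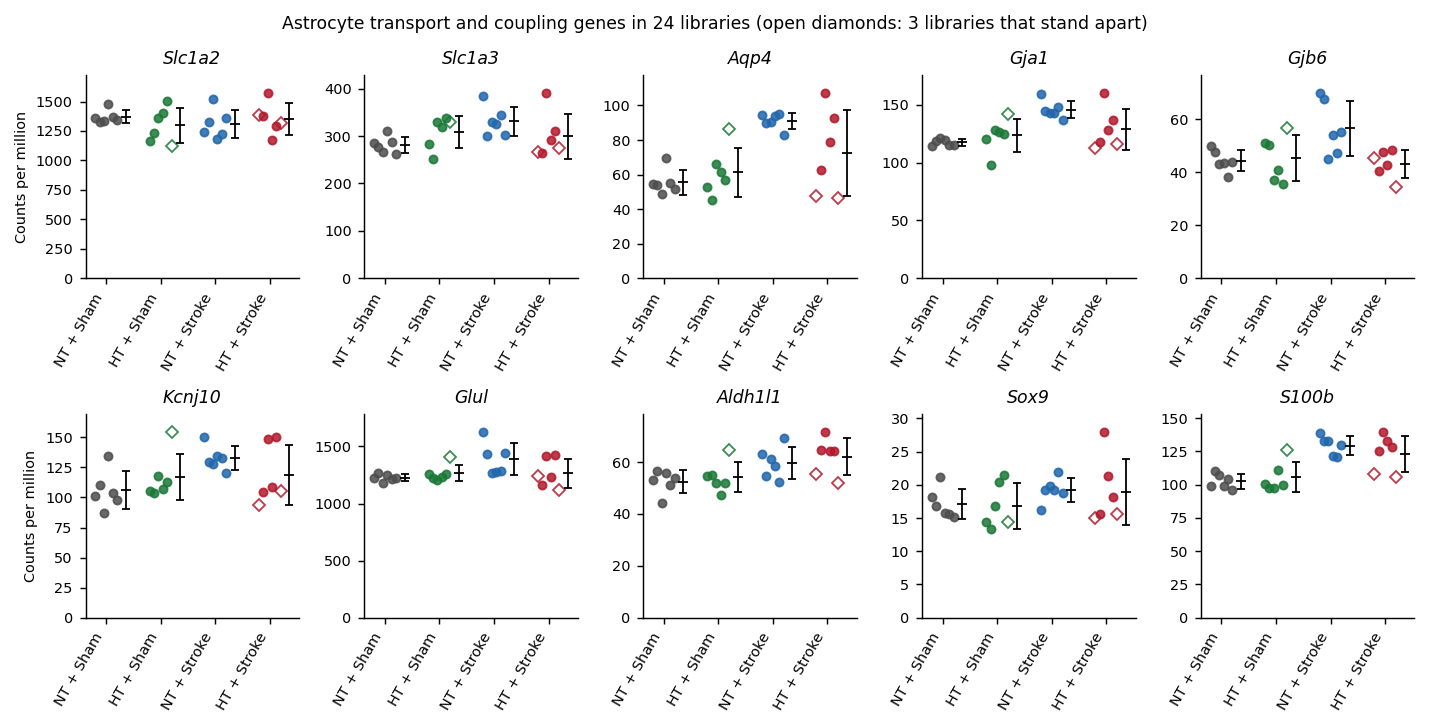
CPM of the 10 genes in each of the 24 libraries, grouped as NT + Sham, HT + Sham, NT + Stroke and HT + Stroke, with the group mean ± SD beside the points. Open diamonds mark the 3 libraries that stand apart. Aqp4, Gja1 and S100b in NT + Stroke lie wholly above NT + Sham, and Slc1a2 does not separate any groups.

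Stroke in normotensive mice was followed by modestly higher levels of most of the 10 genes at day 28. Of the 10, 8 rose and 0 fell in NT + Stroke vs NT + Sham (edgeR, adjusted P under 0.05). Over all 16835 genes tested, 14.4% were higher and 11.5% lower. The water channel Aqp4 rose most, 1.66-fold, while the other 7 rose 1.15- to 1.29-fold. The glutamate transporter Slc1a2 was at 0.97-fold and did not pass. The median log2 fold change of the 10 was 0.29, against -0.01 over all genes. In RNA from whole tissue, more or fewer astrocytes and more or less RNA per astrocyte cannot be told apart.

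Gene positions below are those of the deposited tables, which match GRCm38. Among the genes of the endfoot, Aqp4 was at 48.8 to 69.6 CPM in NT + Sham (median 54.2) and 82.7 to 95.1 CPM in NT + Stroke (median 92.2). The groups did not overlap, and every NT + Stroke library was above the highest sham library. The log2 fold change was 0.73 (SE 0.08, adjusted P = 2.98e-06). Kcnj10 (chr1:172341210-172374085, plus strand) was at 87.1 to 134 CPM in NT + Sham (median 103) and 120 to 150 CPM in NT + Stroke (median 131). Its groups overlapped because 1 sham library, number 4, reached the stroke range. The log2 fold change of Kcnj10 was 0.34 (SE 0.09, adjusted P = 0.00861).

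Both connexins rose. Gja1 (chr10:56377330-56402513, plus strand) was at 114 to 121 CPM in NT + Sham (median 117) and 137 to 159 CPM in NT + Stroke (median 144), with no overlap. Its log2 fold change was 0.33 (SE 0.05, adjusted P = 7.55e-05). Gjb6 (chr14:57123303-57133611, minus strand) was more spread, at 38.2 to 49.9 CPM in NT + Sham (median 43.7) and 45.0 to 69.8 CPM in NT + Stroke (median 54.6). Its log2 fold change of 0.37 (SE 0.10, adjusted P = 0.0115) came from groups that overlapped.

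Of the glutamate genes, Slc1a3 (chr15:8634124-8710764, minus strand) was at 263 to 310 CPM in NT + Sham (median 281) and 300 to 384 CPM in NT + Stroke (median 327). The log2 fold change of Slc1a3 was 0.25 (SE 0.07, adjusted P = 0.00913). Glul (chr1:153899944-153909723, plus strand) was at 1178 to 1270 CPM in NT + Sham (median 1225) and 1267 to 1623 CPM in NT + Stroke (median 1359), a log2 fold change of 0.20 (SE 0.06, adjusted P = 0.0282). For both genes the groups overlapped. Slc1a2 (chr2:102658659-102790784, plus strand) was at 1330 to 1481 CPM in NT + Sham (median 1352) and 1186 to 1517 CPM in NT + Stroke (median 1283). The stroke range enclosed the sham range, and the log2 fold change was -0.05 (95% interval -0.17 to 0.08, adjusted P = 0.653).

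Of the marker genes, S100b (chr10:76253853-76261159, plus strand) was at 95.7 to 110 CPM in NT + Sham (median 102) and 121 to 139 CPM in NT + Stroke (median 131), with no overlap. Its log2 fold change was 0.36 (SE 0.05, adjusted P = 7.63e-05). Aldh1l1 (chr6:90486427-90600203, plus strand) was at 44.4 to 56.5 CPM in NT + Sham (median 53.5) and 52.3 to 69.5 CPM in NT + Stroke (median 59.7). It passed by a small margin (log2 fold change 0.21, SE 0.08, adjusted P = 0.0495) and missed with DESeq2 (adjusted P = 0.0522). Sox9 (chr11:112782224-112787760, plus strand) was at 15.2 to 21.2 CPM in NT + Sham (median 16.3) and 16.3 to 21.9 CPM in NT + Stroke (median 19.2), a log2 fold change of 0.19 (SE 0.09) that did not pass (adjusted P = 0.131). The 3 members whose groups did not overlap, Aqp4, Gja1 and S100b, compare with 7.47% of all genes that were higher without overlap.

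Other tissue moved with this comparison. The summed CPM of 7 neuron markers was 5909.5 to 6836 in NT + Stroke, below 7635.5 to 8386.5 in NT + Sham. Of these markers 3 were lower, and Gad2, of inhibitory neurons, was higher (log2 fold change 0.37, SE 0.10, adjusted P = 0.00899). The 6 microglia markers summed to 272 to 371 CPM after stroke and 207 to 232 CPM after sham surgery, and 5 were higher. Of 6 oligodendrocyte markers 3 were higher (median log2 fold change 0.27), and of 4 endothelial markers 2 (0.28). Of 4 ependymal markers 2 were higher (median 1.19), and of 3 oligodendrocyte precursor markers 0 (0.12). In each of these 4 lists 0 were lower. The summed CPM of 6 lesion macrophage markers was 183 to 756 against 27.9 to 33.3, and that of 4 meningeal fibroblast markers 156 to 629 against 38.6 to 50.7. Markers of cortex, 5 genes, summed to 1876 to 2636 CPM after stroke and 2707 to 3472 CPM after sham surgery. The 5 olfactory bulb markers summed to 101 to 407 CPM and 64.3 to 147 CPM. All 5 cortex markers were lower and 3 of the 5 olfactory bulb markers higher by edgeR. The 6 striatal markers summed to 277 to 1552 CPM after stroke and 231 to 1144 CPM after sham surgery. Their log2 fold changes were 0.54 to 1.01 (median 0.76), and 0 were called. No marker was at 0 in every library of a group. With scores of olfactory bulb and striatal genes as covariates, 2 of the 10 passed, Aqp4 (log2 fold change 0.83, SE 0.11, adjusted P = 0.000120) and S100b (0.35, SE 0.10, adjusted P = 0.0442). Calls over all 16835 genes dropped as well, to 696 higher and 64 lower, from 2426 and 1939 without the covariates. The other 8 members were at 0.12 to 0.38 with the covariates, Slc1a2 at 0.13 among them. The part of the other cell types in these results was not tested.

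**Figure D2:**
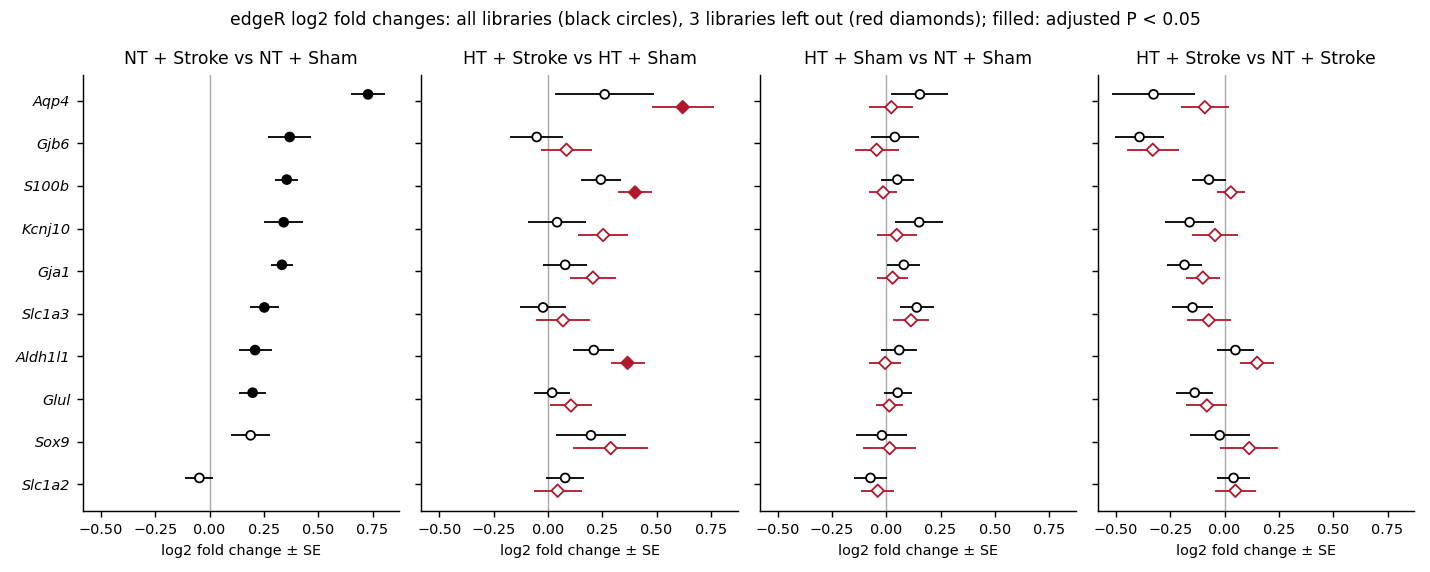
Log2 fold change ± SE of the 10 genes in 4 comparisons from edgeR, with all libraries (black circles) and with 3 libraries left out (red diamonds). Filled symbols have an adjusted P under 0.05. Of the 10 genes, 8 are filled in NT + Stroke vs NT + Sham, and Aqp4, S100b and Aldh1l1 are filled in HT + Stroke vs HT + Sham only without the 3 libraries.

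In hypertensive mice the stroke comparison gave no call with all libraries. Of the 10 genes, 0 passed in HT + Stroke vs HT + Sham (edgeR), where 0.544% of 16741 genes were higher. At an unadjusted P under 0.05, 2 of the 10 were counted (Aldh1l1 and S100b), against 17% of all genes. With DESeq2 0 of the 10 passed, against 4.88% of genes. Aqp4 was at 45.1 to 86.3 CPM in HT + Sham (median 59.2) and 46.2 to 107 CPM in HT + Stroke (median 70.7). The highest sham value was library 6 and the lowest stroke values were libraries 1 and 6, the libraries that go against their labels. The log2 fold change of Aqp4 was 0.26 (SE 0.23, adjusted P = 0.614).

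Without those 3 libraries, 3 of the 10 were higher in HT + Stroke than in HT + Sham and 0 lower, against 6.81% of genes higher. Aqp4 was then at a log2 fold change of 0.62 (SE 0.14, adjusted P = 0.0139). S100b was at 0.40 (SE 0.08, adjusted P = 0.00500), and Aldh1l1 at 0.37 (SE 0.08, adjusted P = 0.00854). The level of S100b was 125 to 139 CPM in 4 stroke libraries and 97.5 to 111 CPM in 5 sham libraries. The other 7 had log2 fold changes of 0.04 (Slc1a2) to 0.29 (Sox9). Gjb6, at 0.09 (SE 0.12), and Slc1a3, at 0.07 (SE 0.12), were among them. Markers of other tissue moved here too: in the same libraries the summed CPM of 6 striatal markers was 576 to 1926 in HT + Stroke and 387 to 755 in HT + Sham. That of 6 oligodendrocyte markers was 5183 to 5696 against 3899 to 4892, and that of 6 lesion macrophage markers 203 to 796 against 26.6 to 41.2. Their part in the result was not tested.

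Against NT + Sham, 2 of the 10 were higher in HT + Stroke and 0 lower, where 8.38% of genes were higher. They were S100b (log2 fold change 0.29, SE 0.08, adjusted P = 0.0211) and Aldh1l1 (0.27, SE 0.08, adjusted P = 0.0431). S100b was at 105 to 139 CPM in HT + Stroke (median 127), and Aldh1l1 at 52.1 to 71.5 CPM (median 64.3). Leaving out 1 library gave 0 to 2, with 0 without NT + Sham library 1 or HT + Stroke library 4. Without HT + Stroke libraries 1 and 6, 4 were higher (Aqp4, Gja1, Aldh1l1 and S100b), against 12.2% of genes. The comparison shares its control libraries with NT + Stroke vs NT + Sham. Markers of other cells moved in it too: with all libraries, 5 of 5 lesion macrophage markers tested, 4 of 4 of meningeal fibroblasts and 5 of 6 of oligodendrocytes were higher, and 3 of 5 of cortex lower. Their part in the result was not tested.

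Angiotensin II in sham mice moved none of the 10 past the threshold. In HT + Sham vs NT + Sham, 0 of the 10 and 0% of 16581 genes had an adjusted P under 0.05 with edgeR, and DESeq2 also called 0 of the 10. At an unadjusted P under 0.05 there were 0 of the 10, against 8.03% of genes. The log2 fold changes were -0.07 (Slc1a2) to 0.15 (Aqp4). For Aqp4 the 95% interval was -0.10 to 0.41, and for Slc1a2 -0.22 to 0.07. Without HT + Sham library 6, Aqp4 was at 0.02 (SE 0.10).

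Nor did any pass between the stroke groups. In HT + Stroke vs NT + Stroke, 0 of the 10 and 0% of 17008 genes were called by edgeR, and DESeq2 called 0 of the 10. At an unadjusted P under 0.05 there were 2 of the 10, Gjb6 and Gja1, against 7.23% of genes. Gjb6 was at 34.3 to 48.2 CPM in HT + Stroke (median 44.0), and all 6 values were below the NT + Stroke median of 54.6 CPM. The ranges overlapped, and the log2 fold change of -0.39 (95% interval -0.61 to -0.17) had an adjusted P of 0.654. Without HT + Stroke libraries 1 and 6 it was -0.33 (SE 0.12, adjusted P = 0.854). Aqp4 was at -0.33 (SE 0.19) with all libraries and at -0.09 (SE 0.11) without those 2.

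The interaction tests whether the stroke difference itself differed between HT and NT mice. None of the 10 passed with edgeR or DESeq2, and over all genes edgeR called 0% of 17608 and DESeq2 0.131%. At an unadjusted P under 0.05 there were 3 of the 10 (Gjb6, Gja1 and Slc1a3), against 10.4% of genes. The differences of log2 fold changes, HT minus NT, were -0.47 for Aqp4 (95% interval -0.96 to 0.01), -0.43 for Gjb6, -0.31 for Kcnj10, -0.28 for Slc1a3 and -0.26 for Gja1. For Slc1a2 the difference was 0.12. Without the 3 libraries the 10 values ran from -0.28 (Gjb6) to 0.16 (Aldh1l1), with Aqp4 at -0.11 (SE 0.16). A stroke difference seen in NT mice and not called in HT mice is therefore not shown to differ between them.

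Within the 12 stroke libraries, members were set against Gfap as a measure of injury, with the group as a covariate. Per doubling of Gfap, 3 of the 10 were higher and 0 lower, against 5.67% of 17007 genes higher. The slopes were 0.36 for Aqp4 (SE 0.07, adjusted P = 0.00605), 0.16 for Aldh1l1 (SE 0.04, adjusted P = 0.0231) and 0.15 for S100b (SE 0.03, adjusted P = 0.00582), in log2 units. All 10 slopes were above 0, with Slc1a2 the lowest at 0.04 (SE 0.05). The calls, but not the size of every slope, depended on HT + Stroke libraries 1 and 6. Without library 1, 0 passed (Aqp4 0.33, adjusted P = 0.0785), without library 6, 1 passed (S100b 0.16, adjusted P = 0.0497), and without both, 0 passed, where 0.0631% of genes were higher. Among all genes, 519 of 17216 were higher without library 1 and 622 of 17193 without library 6, Gfap itself included. Without both, Aqp4 was at 0.04 (SE 0.19), while S100b, at 0.17 (SE 0.10), and Aldh1l1, at 0.21 (SE 0.13), had slopes no smaller than with all libraries but larger errors.

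**Figure D3:**
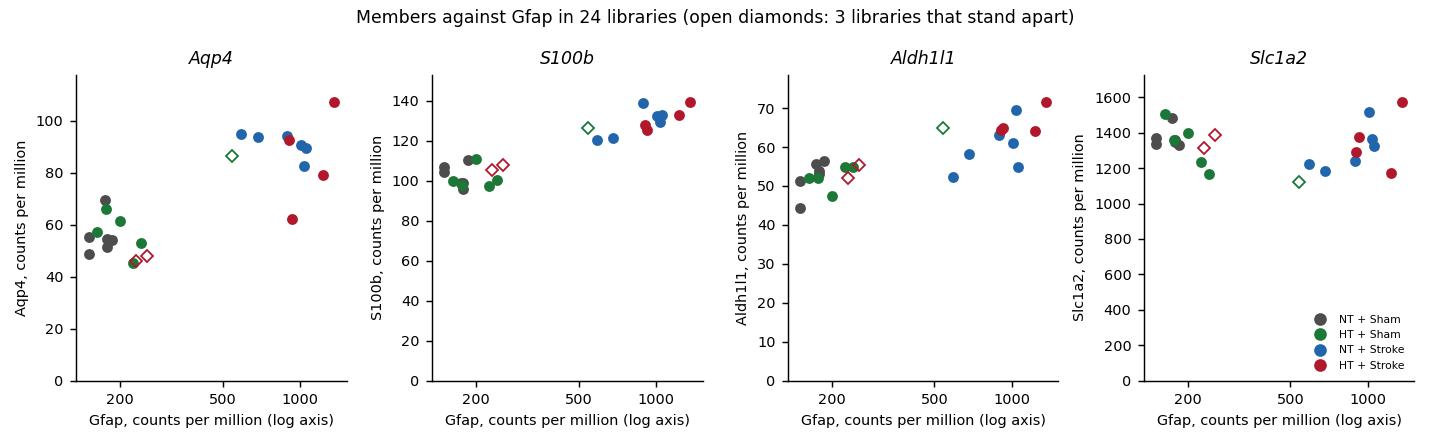
CPM of Aqp4, S100b, Aldh1l1 and Slc1a2 against Gfap (log axis) in the 24 libraries, coloured by group, with open diamonds for the 3 libraries that stand apart. The 2 open HT + Stroke points lie among the sham libraries and the open HT + Sham point, at 542 CPM of Gfap, lies near the stroke libraries, while Slc1a2 shows no such step.

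Ratios of 2 members within a library do not depend on library scaling. The ratio of Slc1a3 to Slc1a2 counts, on a log2 scale, was -2.36 to -2.25 in NT + Sham and -2.20 to -1.69 in NT + Stroke, so the groups did not overlap. The difference was 0.30 (exact two-sided permutation test, P = 0.00216, adjusted over 12 tests 0.0130), and this is the smallest P that 6 libraries against 6 can give. The NT + Stroke libraries differed in olfactory bulb score (mean log2(CPM + 1) of its markers). Libraries 1, 4 and 5, with scores of 5.76 to 6.07, had ratios of -1.87 to -1.69. Libraries 2, 3 and 6, with scores of 3.98 to 4.48, had ratios of -2.20 to -2.15. With olfactory bulb and striatal scores as covariates, the edgeR log2 fold change was 0.20 for Slc1a3 (SE 0.10) and 0.13 for Slc1a2 (SE 0.10). The part of section plane was not tested. In HT + Sham the ratio was -2.29 to -1.77, 0.21 higher than in NT + Sham (exact permutation P = 0.0108, adjusted 0.0433). Without HT + Sham library 6 that difference was 0.15 (exact permutation, adjusted P = 0.0433). Leaving out any 1 NT + Sham library brought the adjusted exact P of both differences above 0.05, with sizes of 0.29 to 0.31 and 0.20 to 0.22. NT + Stroke still did not overlap NT + Sham in those fits. Unequal group sizes change the set of splits, so these P-values are not comparable with those of 6 against 6. The 5 olfactory bulb markers summed to 108 to 484 CPM in HT + Sham, against 64.3 to 147 CPM in NT + Sham. By edgeR 5 of 5 had an unadjusted P under 0.05, against 8.03% of genes, and 0 an adjusted one (median log2 fold change 1.21). With the covariates, Slc1a3 was at 0.13 (SE 0.12) and Slc1a2 at 0.04 (SE 0.12) in HT + Sham vs NT + Sham. The part of section plane in this ratio was not tested either.

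The ratio of Aqp4 to Kcnj10 was -1.03 to -0.84 in NT + Sham and -0.67 to -0.48 in NT + Stroke, again with no overlap. The difference of 0.39 (exact permutation P = 0.00216, adjusted 0.0130) had an adjusted P of 0.0130 to 0.0260 by exact permutation with each library left out. In HT + Stroke the ratio was 0.19 higher than in HT + Sham (exact permutation P = 0.182, adjusted 0.312), and 0.37 higher without the 3 libraries (exact permutation, adjusted P = 0.0317). The ratio of the 2 connexins gave no difference past the threshold. The log2 ratio of Gja1 to Gjb6 was 1.41 ± 0.14 in NT + Sham and 1.38 ± 0.23 in NT + Stroke (mean ± SD, n = 6 each), and exact permutation gave adjusted P of 0.286 to 0.833 over the 4 comparisons.

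**Figure D4:**
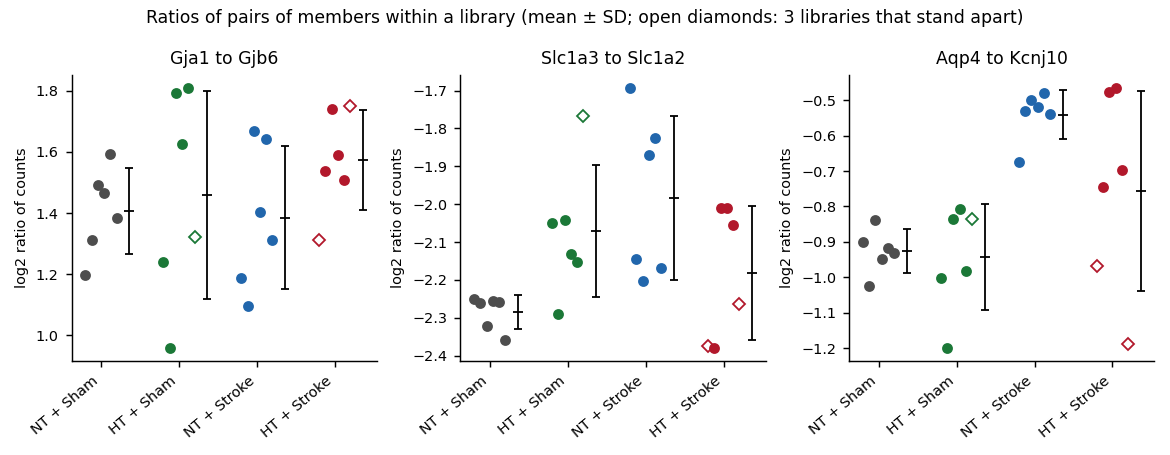
Log2 ratio of counts of Gja1 to Gjb6, Slc1a3 to Slc1a2 and Aqp4 to Kcnj10 in each library by group, with the mean ± SD beside the points and open diamonds for the 3 libraries that stand apart. The axes do not start at 0. NT + Stroke lies wholly above NT + Sham for Slc1a3 to Slc1a2 and for Aqp4 to Kcnj10, and overlaps it for Gja1 to Gjb6.

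Within groups, the members rose and fell together in part. Deviations of log2 CPM from the group mean gave a median Pearson r of 0.46 over the 45 pairs of members (24 libraries, range -0.43 to 0.87), and 39 pairs were above 0. The points share library, depth and section plane, so r is a description. The closest pairs were Slc1a3 with Gja1 (r = 0.87, Spearman rho = 0.81), Aqp4 with Kcnj10 (r = 0.86, rho = 0.85) and Aqp4 with Gja1 (r = 0.86, rho = 0.76). The median r with the other members was 0.61 for Gja1 and for Glul but 0.00 for Slc1a2, and Slc1a2 with Gjb6 had the lowest r of all (-0.43, rho = -0.46). Without the 3 libraries the median over pairs was 0.32, Slc1a3 with Gja1 stayed at 0.88, and the median for Slc1a2 was 0.29. Among the 5 of 10948 genes with the highest mean r over the 10 members, lists left aside, were Ddr2 (0.63), Lamp2 (0.61), Axl (0.60) and Abhd4 (0.60), at 0.50 to 0.54 without the 3 libraries.

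Other astrocyte genes moved with the 10 in NT + Stroke vs NT + Sham, where 14.4% of all genes were higher and 11.5% lower. Of 20 wider astrocyte transporters and channels, 10 rose and 0 fell, with a median log2 fold change of 0.22. The largest rises were those of the urea transporter Slc14a1 (1.05, SE 0.09, adjusted P = 4.35e-07), the sodium pump regulator Fxyd1 (0.93, SE 0.11, adjusted P = 1.22e-05) and the cystine transporter Slc7a11 (0.59, SE 0.11, adjusted P = 0.000631). Of 10 genes of endfoot anchoring and coupling, 4 rose and 0 fell (median 0.13). These were a further connexin, Gjb2 (1.35, SE 0.13), the calcium-permeable channel Trpv4 (0.61, SE 0.22), Mlc1 (0.50, SE 0.05) and Hepacam (0.22, SE 0.06), the last 2 being partners in astrocyte junctions. Gjb2 is also made by cells of the meninges, whose markers were higher in the same comparison. Dystrophin, Dmd, which anchors AQP4 through its complex, was at -0.21 (SE 0.08, adjusted P = 0.0509).

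Of 12 genes of astrocyte metabolism and lipid carriage, 11 were tested, 6 rose and 0 fell (median 0.29). Apoe, the main lipid carrier of the brain, rose by 1.32 on the log2 scale (SE 0.15), Clu by 0.39 (SE 0.08) and the glycogen phosphorylase Pygb by 0.34 (SE 0.06). Apoe is also made by microglia and macrophages. The 10 astrocyte transcription factors were divided, with 4 higher and 4 lower (median 0.03). Id3 (0.87, SE 0.11), Zbtb20 (0.56, SE 0.07) and Id4 (0.43, SE 0.08) were higher, and Nfib (-0.23, SE 0.05), Nfix (-0.22, SE 0.07) and Rorb (-0.22, SE 0.08) were lower. Neurons also express Nfib, Nfix and Rorb. In this comparison 3 of 7 neuron markers were lower and 1 higher, and all 5 cortex markers were lower. The part of neurons in these values was not tested. Of the 12 genes of the reactive astrocyte reference, 11 rose (median 2.36), with Gfap at 2.39 (SE 0.14) and Vim at 1.97 (SE 0.09). Against these, the 1.66-fold rise of Aqp4 and the smaller ones of the other members stand beside 5.25-fold for Gfap and 3.91-fold for Vim.

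**Figure D5:**
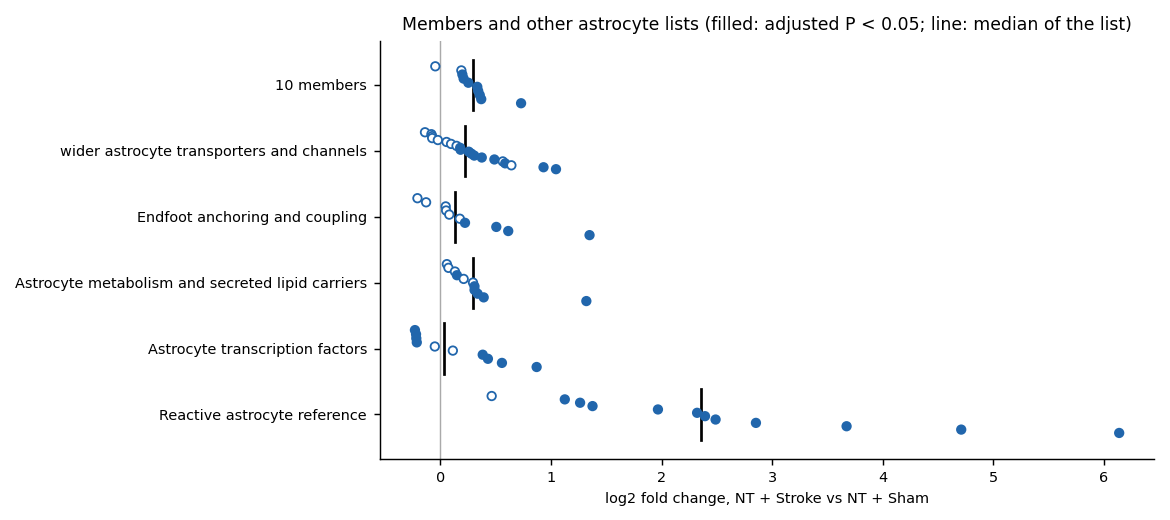
Log2 fold change in NT + Stroke vs NT + Sham of the 10 genes and of 5 other lists of astrocyte genes, 1 point per gene, filled where the adjusted P was under 0.05, with a black line at the median of each list. The reactive genes lie furthest right (median 2.36), and the 10 members lie between -0.05 and 0.73.

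In HT + Stroke vs HT + Sham, 0 genes passed in each of these 5 lists with edgeR and all libraries. At an unadjusted P under 0.05 there were 2 of 20 wider transporters, 3 of 10 endfoot genes, 4 of 11 metabolic genes, 1 of 10 transcription factors and 11 of 12 reactive genes, against 17% of all genes. Without the 3 libraries, 3 of the wider transporters, 2 of the endfoot genes, 2 of the metabolic genes, 1 of the transcription factors and 11 of the reactive genes rose, and 0 fell, against 6.81% of all genes higher and 1.66% lower. In the Gfap slopes over all 12 stroke libraries, Slc14a1 (0.46, SE 0.08), Fxyd1 (0.34, SE 0.06), Gjb2 (0.52, SE 0.11), Mlc1 (0.22, SE 0.04), Apoe (0.63, SE 0.07) and Id3 (0.39, SE 0.07) passed beside Aqp4, S100b and Aldh1l1, as did 6 of 6 lesion macrophage markers. Without HT + Stroke libraries 1 and 6, 0 genes of these lists passed by edgeR except 2 of 11 reactive genes, and unadjusted P was under 0.05 for 2 of 20 wider transporters, 0 of 10 endfoot genes, 3 of 11 metabolic genes, 1 of 10 transcription factors and 11 of 11 reactive genes, against 7.8% of all genes.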

How the data were processed

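Counts and FPKM were taken from the 4 tables the authors deposited, 1 per comparison of groups, and joined by Ensembl identifier. As deposited by the authors, counts are whole reads per gene, not normalized, and FPKM are counts divided by gene length and library size. The submitters' processing notes name featureCounts 1.5.0-p3 and DESeq2 1.20.0. The study mapped reads from poly(A) RNA to the Ensembl mouse genome, and the aligner and the strand setting are not given in the sources used here. The authors' own fold changes and P-values, 48 columns of normalized counts and 8 of group means were not used. Libraries in more than 1 table held the same values (48 column pairs compared, 0 differed). Positions of 97.6% of genes, and of 9 of the 10 members, are those of GENCODE M21 (GRCm38).

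Tests used edgeR 4.0.16 under R 4.3.3: filterByExpr (minimum count 10, total 15), TMM scaling, a two-sided quasi-likelihood test on the groups compared, and Benjamini-Hochberg adjustment across every gene in the fit (threshold 0.05). CPM use the TMM-scaled library size. SE is the log2 fold change divided by the root of F. Scripts were tested on simulated data. Alternatives were DESeq2 1.42.0, limma 3.58.1 on log2(FPKM + 1) and log2(FPKM + 0.1) with a mean of at least 0.1 FPKM, other scalings and filters, 1 fit of all 4 groups, region scores as covariates and each library left out (96 fits). Leaving out 3 libraries was added after the data were seen. Ratios used counts plus 0.5 and exact permutation tests in scipy 1.17.1.

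Genes named are the 10 members, from each list up to 3 called genes each way with the largest log2 fold change, Gfap and Vim, and 5 genes by mean r with the members among genes with a mean log2 CPM above 3, of which 1 is not reported here. Dip2a, Hepacam, Dmd and Lgals3, and those named from the Gfap slopes, were added after their values were seen. The members, lists and tests were chosen with earlier results of these data known. The labels name no batch, and none was examined. Depth was 15922919 to 24865998 counts per library.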

Additional observations from a re-analysis of the deposited data

Results flagged for a closer look

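Among 40 sets of 6 libraries (10 genes in 4 groups), 5 held a library far from the others by Dixon's test, where chance flags about 1 in 20. NT + Sham library 4 was high in Slc1a2 (1481 CPM) and in Aqp4 (69.6 CPM). HT + Sham library 6, which also had Gfap and Lgals3 above the rest of its group, was high in Kcnj10 (154 CPM) and Glul (1403 CPM). HT + Stroke library 3 was high in Slc1a3 (390 CPM), and it also had the highest Gfap of all libraries (1360 CPM).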

How the results depend on the processing

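The 8 members called in NT + Stroke vs NT + Sham became 2 with olfactory bulb and striatal scores as covariates, 6 to 9 under the other alternatives and 6 to 8 with 1 library left out. Calls over all genes moved too. In that comparison 2426 of 16835 genes were higher in the main fit, 2983 with no scaling (9 members) and 696 with the covariates. With all genes of at least 1 count 2308 of 32743 were higher (6 members), and in 1 fit of all 4 groups 2128 of 17608 (6 members). The 2 called in HT + Stroke vs NT + Sham became 1 with no scaling, 1 with all genes of at least 1 count, 1 with limma on log2(FPKM + 1) or log2(FPKM + 0.1), 0 with the covariates, 0 to 2 with 1 library left out and 4 without the 3 libraries that stand apart. Among all genes, 1403 of 16749 were higher in the main fit, 1291 with no scaling and 1167 of 32825 with at least 1 count. Limma gave 845 and 1032 of 21312, and the covariates 0 of 16749. Leaving out 1 library gave 796 to 1753 higher, and leaving out the 3 libraries 2086 of 17168. The 3 Gfap slopes called became 0 to 3 with 1 library left out and 0 without the 3 libraries, where the slope of Aqp4 fell to 0.04 and those of S100b (0.17) and Aldh1l1 (0.21) did not shrink. Slopes called higher numbered 965 of 17007 genes with all libraries and 11 of 17420 without the 3. Leaving out 1 library gave 519 to 1024, Gfap itself included. In HT + Stroke vs HT + Sham 0 became 3 without the 3 libraries, and stayed at 0 otherwise, as did the interaction and both comparisons of HT with NT at the same surgery in every alternative run. Of all genes in HT + Stroke vs HT + Sham, 91 of 16741 were higher, and 1155 of 16956 without the 3 libraries. The log2 ratio of Aqp4 to Kcnj10 in HT + Stroke vs HT + Sham passed without the 3 libraries (0.369). With 1 library left out, the ratio of Slc1a3 to Slc1a2 was 0.242 to 0.344 higher in NT + Stroke and 0.151 to 0.256 higher in HT + Sham than in NT + Sham. The causes were not tested.

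Of 1610 member values recomputed, 1558 stayed on the same side of the threshold, 45 lost a call, 7 gained one and 0 called values changed sign, while 95 uncalled values changed sign. No paired analysis was possible because the labels number no replicates that the groups share, and the numbers of the libraries in the tables name a library only.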
